A study of Homo sapiens with 12 samples.

Results

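The genes described here control the phosphorylation of eIF2 alpha, the switch of the integrated stress response. They were found by matching the Ensembl identifiers of the count table to 8 gene symbols, and each symbol matched 1 of the 60664 rows. The 8 genes are EIF2AK1, EIF2AK2, EIF2AK3 and EIF2AK4, the 4 kinases; GCN1 and IMPACT, partners of the kinase GCN2; and PPP1R15A and PPP1R15B, the phosphatase subunits. The rule names genes by symbol and sets no condition on their values, but it was written with earlier results of these data known.

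RNA was sequenced from TOM-1 and RS4;11, human lines of B-cell precursor acute lymphoblastic leukaemia, each labelled WT. TOM-1 carries the Philadelphia chromosome and RS4;11 a KMT2A rearrangement. Each line was kept with or without ADI-PEG20, which gave 4 groups of 3 libraries. ADI-PEG20, a pegylated arginine deiminase that degrades the arginine in the medium, was given at 1000 ng/ml for 24 hours to log-phase cultures, and control cultures were kept for the same time. All groups grew in RPMI with fetal bovine serum and antibiotics. Per its title, the series is about deficiency of ASS1, which cells need to rebuild arginine, in Philadelphia-positive leukaemia. Each line stands for 1 patient's leukaemia, and no label says whether the libraries of a group came from separate cultures. P-values therefore measure only the spread between these libraries, which may be technical.

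As background, eIF2 carries the initiator methionyl-tRNA to the ribosome, and phosphorylation of its alpha subunit blocks the exchange factor eIF2B, which lowers general protein synthesis while favouring translation of mRNAs such as ATF4. Each kinase answers its own signal: HRI (EIF2AK1) haem shortage and mitochondrial stress, PKR (EIF2AK2) double-stranded RNA, PERK (EIF2AK3) unfolded proteins in the endoplasmic reticulum, and GCN2 (EIF2AK4) uncharged tRNA and stalled ribosomes, which is why GCN2 is the kinase best known for amino acid shortage. The phosphate is removed by protein phosphatase 1, brought to eIF2 alpha by GADD34 (PPP1R15A), which the response itself induces, or by CReP (PPP1R15B), which is made constitutively. The measurements are mRNA levels, and neither kinase activity nor phosphorylated eIF2 alpha was measured in the files used here.

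Total counts ran from 18958144 to 35956959 per library. Between 19857 and 21997 genes had reads in 11 of the libraries, and 14963 in TOM-1 control replicate 3, whose total was 22206152. That library stood apart in the genes described here too, so the results for the 8 genes are given with and without it. Its level was 0.264 times the mean of the other TOM-1 controls for EIF2AK2, 0.371 for PPP1R15B, 0.374 for EIF2AK3, 0.509 for EIF2AK4, 0.698 for GCN1 and 0.778 for EIF2AK1, but 1.76 for PPP1R15A. The median ratio over genes at 5 CPM (read counts scaled to a common library total) or more was 0.910. Its part in the results beyond these values was not tested. All 10 B-lineage markers reached 1 CPM in every group, with a summed level from 2141 to 7101 CPM. VIM, listed with stromal markers, was at 229 to 507 CPM in TOM-1 controls and at 77.6 to 84.1 CPM with ADI-PEG20, while COL1A2, EPCAM and KRT18 had no reads. COL1A1 stayed under 1 CPM in TOM-1 and was at 4.55 to 7.70 CPM in RS4;11 controls and at 3.43 to 5.94 CPM with ADI-PEG20, and the part of such a shift in the results was not tested. Myeloid markers summed to between 13.5 and 28.7 CPM, and the T and NK cell markers to between 23.4 and 69.1 CPM, nearly all NKG7. The 5 erythroid markers summed to at most 0.909 CPM, and HBB was at 0 in all libraries. HOXA9 and MEIS1, which KMT2A fusions activate, had no reads in TOM-1 and summed to between 140 and 159 CPM in RS4;11.

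The promoters of 3 genes are shown, because their genes either rose together in TOM-1 or have a known inducer. RefSeq promoter sequences on GRCh38.p14, 250 bases before to 50 after the start, matched 7 of the 8 genes. They were searched on both strands for TGATGNAA, the C/EBP-ATF composite element bound by ATF4 together with C/EBP proteins; TGACGTCA, the cyclic AMP response element (CRE); TGACGT, its shorter form, which lies inside every CRE; and GAAA repeated after any 2 bases, the core of the interferon-stimulated response element. Capitals mark the matches. For PPP1R15A, chr19:48872171-48872420 on the plus strand, the capitals mark TGACGT at -152 to -147 and the full CRE at -58 to -51.
PPP1R15A: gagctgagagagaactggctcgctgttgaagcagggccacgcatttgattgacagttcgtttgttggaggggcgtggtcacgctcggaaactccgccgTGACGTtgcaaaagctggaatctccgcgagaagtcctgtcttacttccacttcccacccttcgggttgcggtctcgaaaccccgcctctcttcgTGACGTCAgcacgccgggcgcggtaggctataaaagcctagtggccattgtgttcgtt
For PPP1R15B, chr1:204411818-204412067 on the minus strand, they mark the composite element at -227 to -220 and TGACGT at -101 to -96.
PPP1R15B: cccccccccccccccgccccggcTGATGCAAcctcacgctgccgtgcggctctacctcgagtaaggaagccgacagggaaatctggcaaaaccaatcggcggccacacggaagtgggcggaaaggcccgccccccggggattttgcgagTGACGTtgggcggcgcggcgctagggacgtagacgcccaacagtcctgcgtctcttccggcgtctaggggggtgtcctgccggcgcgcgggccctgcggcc
For EIF2AK2, chr2:37156967-37156996 on the minus strand, 30 bases across the start, they mark the interferon element core from 6 bases before the start to base 4.
EIF2AK2: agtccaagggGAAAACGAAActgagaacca

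Among 35116 promoter windows of that length, 3.62% held the composite element, 1.85% the CRE, 7.98% the shorter TGACGT and 3.57% the interferon core. TGACGT was in both phosphatase subunit genes and in no other of the 7 genes matched, while the CRE was in PPP1R15A alone. The composite element was in PPP1R15B alone and the interferon core in EIF2AK2 alone. A match describes letters in this window only and is not evidence of binding. The leaders of the mRNAs were read from the GENCODE release 29 transcript with the longest coding sequence. They held 5 ATG triplets upstream of the start codon in EIF2AK3, 2 each in PPP1R15A and PPP1R15B, and 1 in EIF2AK2, against 0 in the other 4 genes. Over 19543 genes, 50.7% had at least 1, so the share of the genes with one was near the background.

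Levels are given in CPM scaled with TMM factors, which correct for differences in RNA composition, in replicate order. The kinases are described before the subunits that undo their work.

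EIF2AK1 (ENSG00000086232, GRCh38 chr7:6022244-6059230, minus strand) was at 103, 96.5 and 77.8 CPM in TOM-1 controls and at 71.2, 66.9 and 61.7 CPM with ADI-PEG20. It was at 120, 126 and 109 CPM in RS4;11 controls and 124, 132 and 118 CPM with ADI-PEG20. In TOM-1 every treated library lay below every control, and in RS4;11 the groups overlapped. HRI mRNA therefore fell in TOM-1, by 0.48 on the log2 scale (SE 0.13, edgeR adjusted p = 0.0148), and by 0.59 (SE 0.08, adjusted p = 3.71e-06) without TOM-1 control replicate 3. The call was lost without TOM-1 ADI-PEG20 replicate 3 (-0.45, edgeR adjusted p = 0.0600). Opposite-strand genes cover 9.59% of its exonic bases, and whether counting used strand is not given in the sources used here.

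EIF2AK2 (ENSG00000055332, chr2:37099210-37157065, minus strand) was at 174, 168 and 45.02 CPM in TOM-1 controls and at 133, 126 and 127 CPM with ADI-PEG20. The treated libraries lay above control replicate 3 and below replicates 1 and 2. In RS4;11 the levels were 135, 144 and 123 CPM in controls and 143, 143 and 129 CPM with ADI-PEG20, and they overlapped. With all libraries the TOM-1 change of PKR mRNA was close to 0 (SE 0.35, edgeR adjusted p = 1). Leaving out TOM-1 control replicate 3, it was -0.41 (SE 0.07, adjusted p = 8.12e-05) and passed, lower. Voom with sample quality weights, over all 12 libraries, also called it lower (-0.39, limma adjusted p = 6.84e-04).

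EIF2AK3 (ENSG00000172071, chr2:88556741-88627576, minus strand) was at 69.5, 67.2 and 25.6 CPM in TOM-1 controls and at 65.9, 63.2 and 62.4 CPM with ADI-PEG20. In RS4;11 it was at 39.3, 36.7 and 30.8 CPM in controls and at 36.4, 35.1 and 34.2 CPM with ADI-PEG20. The treated libraries were tightly grouped. With all libraries used they overlapped the controls in both lines, in TOM-1 only through control replicate 3. PERK mRNA differed in TOM-1 by 0.24 (SE 0.28, edgeR adjusted p = 0.578), or by -0.10 (SE 0.09, adjusted p = 0.443) when TOM-1 control replicate 3 was left out, and passed the test in neither case. Genes on the opposite strand share 15.1% of its exonic bases.

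EIF2AK4 (ENSG00000128829, chr15:39934146-40035591, plus strand) was at 143, 136 and 70.9 CPM in TOM-1 controls and at 129, 121 and 113 CPM with ADI-PEG20. In RS4;11 it was at 91.7, 84.4 and 87.1 CPM in controls and at 92.1, 84.8 and 80.8 CPM with ADI-PEG20. The groups overlapped in both lines when all libraries were used. GCN2 mRNA, the kinase gene tied to amino acid shortage, differed in TOM-1 by 0.05 (SE 0.21, edgeR adjusted p = 0.911). With TOM-1 control replicate 3 left out the value was -0.21 (SE 0.08, adjusted p = 0.0293), which passed the test in the lower direction, as did voom with sample quality weights over all 12 libraries (-0.21, limma adjusted p = 0.0283).

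**Figure D1:**
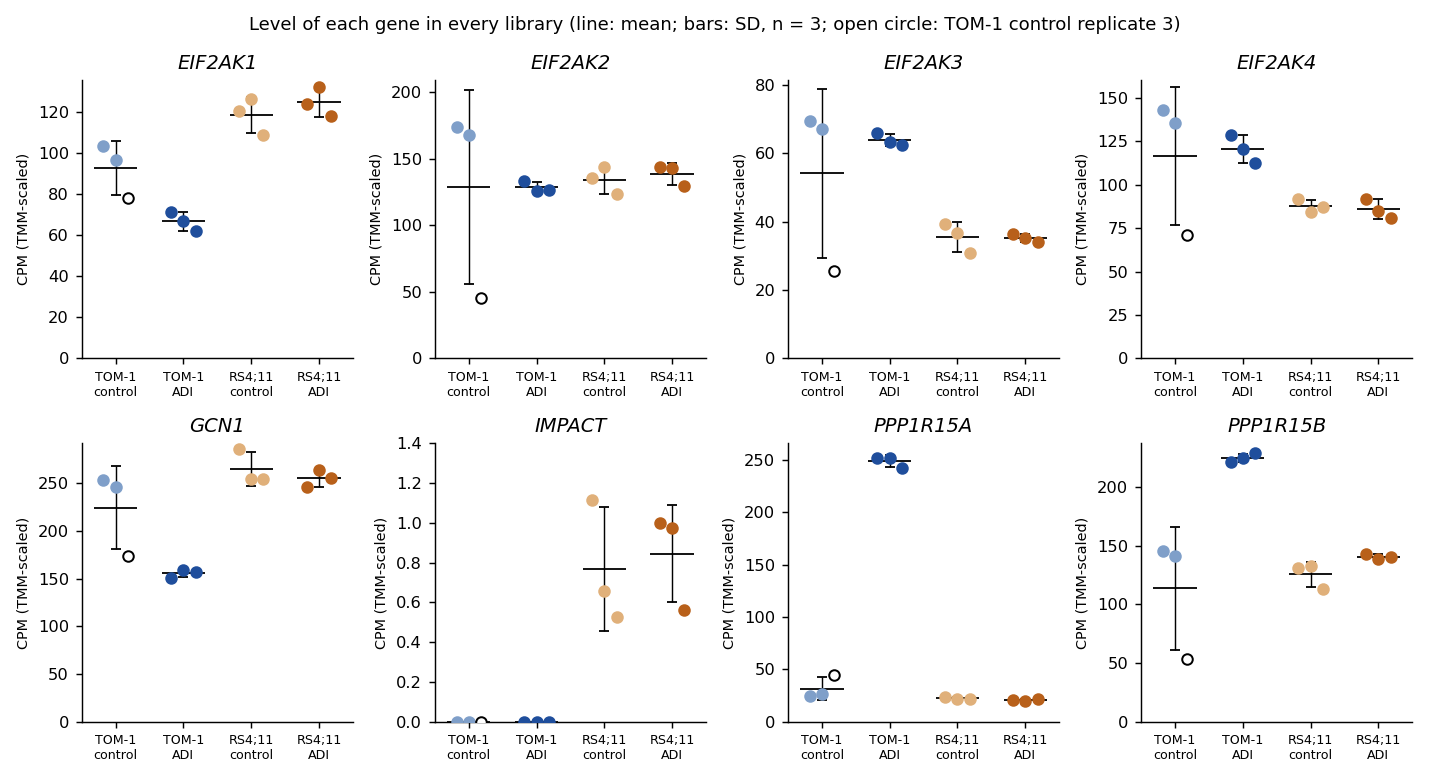
Level of each of the 8 genes in CPM, TMM-scaled, on the y axis of each panel, with 1 point per library and bars at the group means. PPP1R15A and PPP1R15B are high in the 3 TOM-1 ADI-PEG20 libraries, TOM-1 control replicate 3 departs from the other TOM-1 controls, and IMPACT is at 0 in TOM-1.

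Counted per kilobase of exon, EIF2AK1 was the most abundant kinase in all 6 RS4;11 libraries and EIF2AK3 the least. RS4;11 controls had 21.3 ± 1.58 CPM per kilobase (SD, n = 3) of EIF2AK1, 12.5 ± 0.967 of EIF2AK2, 7.34 ± 0.309 of EIF2AK4 and 6.55 ± 0.799 of EIF2AK3. The gap between EIF2AK4 and EIF2AK3 was about as wide as their spread. Scaled by the longest transcript instead, EIF2AK4 came second, since its exons span 11957 bases over all transcripts and 5499 in the longest, but EIF2AK1 stayed highest and EIF2AK3 lowest in those libraries. In TOM-1 the order changed with the length used.

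GCN1 (ENSG00000089154, chr12:120127203-120194710, minus strand), which binds GCN2 and is needed for its activation on ribosomes, was at 253, 246 and 174 CPM in TOM-1 controls and at 151, 159 and 157 CPM with ADI-PEG20. In RS4;11 it was at 286, 255 and 254 CPM in controls and at 246, 264 and 256 CPM with ADI-PEG20. TOM-1 libraries did not overlap between control and treatment, and RS4;11 libraries did. GCN1 fell in TOM-1 by 0.53 on the log2 scale (SE 0.14, edgeR adjusted p = 0.0118), and by 0.68 (SE 0.06, adjusted p = 1.46e-08) without TOM-1 control replicate 3. The call was lost without TOM-1 ADI-PEG20 replicate 1 (-0.52, edgeR adjusted p = 0.0506).

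IMPACT (ENSG00000154059, chr18:24426616-24453535, plus strand), which competes with GCN2 for GCN1 and so restrains the kinase, had no read in any of the 6 TOM-1 libraries. RS4;11 controls had 26, 16 and 11 counts, or 1.12, 0.659 and 0.526 CPM, and treated RS4;11 libraries 25, 20 and 11 counts, or 0.996, 0.972 and 0.563 CPM. The lines did not overlap, and within RS4;11 the conditions did. A count of 0 allows up to 3 counts, which sets a floor for each library. The RS4;11 mean was set against the mean of this floor over the TOM-1 libraries. By these means TOM-1 was at least 6.26-fold lower in control culture and at least 7.01-fold lower with ADI-PEG20. The mean floor in TOM-1 controls was 0.123 CPM, but 0.166 CPM in replicate 3, so a single library can give a smaller bound. IMPACT passed the filter on low counts only through RS4;11, where it has reads, so the difference between the lines is given as a description with no test, and no fold change in TOM-1 can be given. The floor covers counting error only.

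PPP1R15A (ENSG00000087074, chr19:48872392-48876057, plus strand) had the largest response of the 8 genes. TOM-1 controls held 24.4, 26.1 and 44.5 CPM and treated TOM-1 libraries 252, 252 and 242 CPM. RS4;11 held 23.6, 21.8 and 21.7 CPM in controls and 20.3, 20.2 and 22.02 CPM with ADI-PEG20. The 3 treated TOM-1 libraries stood far above all the others, and the RS4;11 conditions overlapped. GADD34 mRNA rose in TOM-1 by 2.97 on the log2 scale (SE 0.20, edgeR adjusted p = 3.01e-06), a 7.86-fold change. Without TOM-1 control replicate 3, the control with the highest level, it was 3.30 (SE 0.08, adjusted p = 4.03e-17), or 9.82-fold. In bulk RNA, fewer cells of a type and less RNA per cell cannot be told apart, here or for the other genes.

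PPP1R15B (ENSG00000158615, chr1:204403387-204411791, minus strand) was at 146, 142 and 53.4 CPM in TOM-1 controls and at 221, 224 and 229 CPM with ADI-PEG20. In RS4;11 it was at 131, 133 and 113 CPM in controls and at 143, 139 and 140 CPM with ADI-PEG20. All treated libraries of both lines were above all controls of their line, by far less in RS4;11. CReP mRNA rose in TOM-1 by 0.98 (SE 0.28, edgeR adjusted p = 0.0181), or 1.98-fold, and by 0.64 (SE 0.07, adjusted p = 1.41e-07), or 1.56-fold, without TOM-1 control replicate 3. That library alone moved the value this far. The call was lost without TOM-1 ADI-PEG20 replicate 1, 2 or 3 (edgeR adjusted p = 0.0538, 0.0540 and 0.0559).

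Set against each other per kilobase of exon, the 2 phosphatase subunits changed places in TOM-1. PPP1R15A was at 0.283, 0.312 and 1.41 times the level of PPP1R15B in TOM-1 controls and at 1.93, 1.89 and 1.79 times with ADI-PEG20. In RS4;11 the ratio was 0.304, 0.278 and 0.323 in controls and 0.240, 0.246 and 0.266 with ADI-PEG20. The inducible subunit thus had the lower mRNA level of the pair in all 6 RS4;11 libraries and in 2 of 3 TOM-1 controls, and the higher one in every treated TOM-1 library. The third TOM-1 control was above 1 before any treatment. Using the longest transcript as length left these orders as they were.

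**Figure D2:**
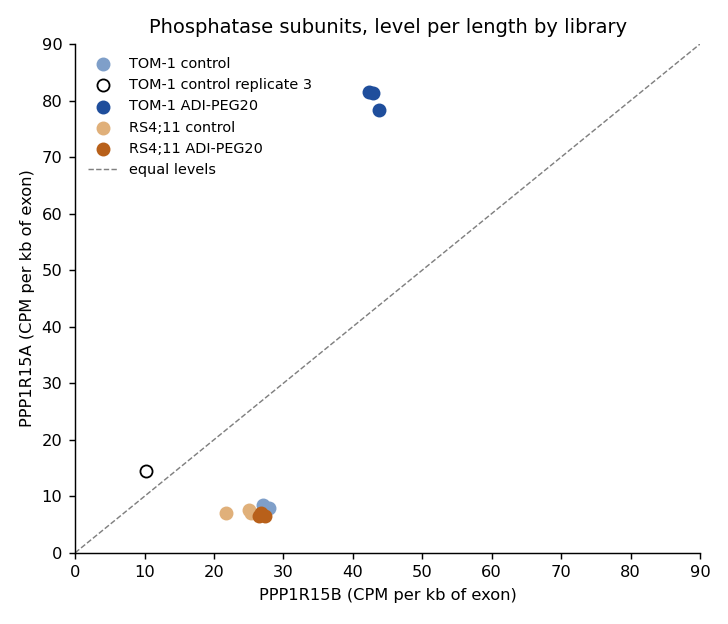
Level of PPP1R15A (y axis) against PPP1R15B (x axis) in CPM per kilobase of exon, 1 point per library, for the 4 groups. A dashed line marks equal levels. The ratio of PPP1R15A to PPP1R15B is between 1.79 and 1.93 in treated TOM-1 libraries and between 0.240 and 0.323 in RS4;11 libraries. It is 1.41 in TOM-1 control replicate 3, against 0.283 and 0.312 in the other TOM-1 controls.

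Counted over the genes, 4 of the 7 with reads in TOM-1 passed the threshold of 0.05 on the adjusted p, PPP1R15A and PPP1R15B higher and EIF2AK1 and GCN1 lower, against 31.9% of all 17349 genes tested. Of all genes, 15.9% were called higher and 15.9% lower. With TOM-1 control replicate 3 left out, 6 of the 7 passed, 2 higher and 4 lower, against 41.6% of 18321 (21.8% higher and 19.8% lower). Without TOM-1 ADI-PEG20 replicate 1 or 3 only 2 passed. Fitted on the 6 TOM-1 libraries alone, PPP1R15A was the only one to pass, and EIF2AK1, GCN1 and PPP1R15B had edgeR adjusted p = 0.0735, 0.0705 and 0.106. The 4 genes called with all libraries were also those whose libraries did not overlap between control and treatment, as was true of 46.2% of all genes. None of the 4 kinase genes was higher in treated TOM-1 by the test, with or without that library.

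In RS4;11, 0 of the 8 genes passed, against 0% of all genes, and 0 had an unadjusted p under 0.05 in edgeR. DESeq2 and limma voom also called 0. Log2 fold changes ran from -0.10 for PPP1R15A (SE 0.19) to 0.16 for PPP1R15B (SE 0.28), and IMPACT, with few reads, had 0.14 (SE 0.76). In the fit without TOM-1 control replicate 3, which also sets the shared estimate of spread, 0.317% of all genes passed and still 0 of the 8. PPP1R15B then had the smallest unadjusted p of the genes, 0.0191, at 0.16 on the log2 scale (SE 0.06, edgeR adjusted p = 0.279). It was also the only one whose RS4;11 libraries did not overlap, which 16.8% of all genes share. The value for PPP1R15A was -0.10 with an SE of 0.08.

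The responses of the lines were then compared directly, as the difference between the ADI-PEG20 log2 fold changes, TOM-1 minus RS4;11. It uses the same control libraries as the comparisons within a line. PPP1R15A differed by 3.07 (SE 0.28, edgeR adjusted p = 8.18e-05), and it was the only one of the 7 genes to pass, against 11.9% of all genes in either direction and 5.89% in this one. The difference was 3.40 (SE 0.11, adjusted p = 6.94e-15) without TOM-1 control replicate 3. For PPP1R15B it was 0.82 (SE 0.39, adjusted p = 0.199) with that library and 0.48 (SE 0.09, adjusted p = 3.76e-04) without.

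EIF2AK1 differed by -0.55 (SE 0.18, edgeR adjusted p = 0.0710) with all libraries and by -0.66 (SE 0.11, adjusted p = 6.93e-05) without TOM-1 control replicate 3. GCN1 went from -0.48 (SE 0.19, adjusted p = 0.135) to -0.63 (SE 0.09, adjusted p = 7.35e-06), and EIF2AK2 from -0.05 (SE 0.50, adjusted p = 1.00) to -0.46 (SE 0.10, adjusted p = 0.00105). Without that library 5 of 7 genes therefore passed, against 30.4% of all genes. EIF2AK3 (0.25, then -0.09) and EIF2AK4 (0.08, then -0.18) passed in neither case, with adjusted p from 0.215 to 0.932.

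**Figure D3:**
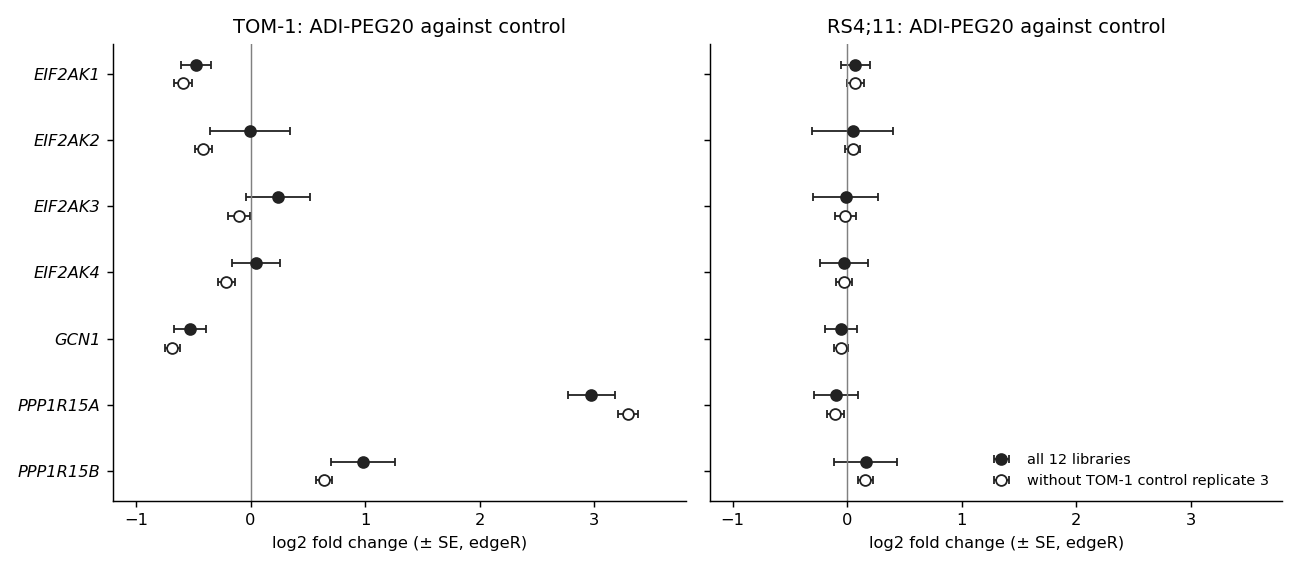
Log2 fold change of each gene other than IMPACT, with its standard error (x axis), for ADI-PEG20 against control in TOM-1 and in RS4;11. Values are over all 12 libraries or with TOM-1 control replicate 3 left out. PPP1R15A lies near 3 in TOM-1 and near 0 in RS4;11, and leaving out the library moves EIF2AK2 from close to 0 to -0.41.

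Between the control cultures of the lines, 0 of the 7 genes other than IMPACT passed in edgeR with all libraries, against 34.7% of all genes, and 2 had an unadjusted p under 0.05. DESeq2 called 1 of the 7 and voom 4. EIF2AK3 was at 0.61 in TOM-1 against RS4;11 (SE 0.28, edgeR adjusted p = 0.119) and EIF2AK4 at 0.41 (SE 0.21, adjusted p = 0.154). EIF2AK1 was at -0.35 in TOM-1 against RS4;11 (SE 0.13, edgeR adjusted p = 0.0515), and passed without TOM-1 control replicate 1 (adjusted p = 0.0228), without TOM-1 control replicate 3 (-0.25, adjusted p = 0.0156) or without RS4;11 control replicate 3 (adjusted p = 0.0459). PPP1R15A was at 0.50 (SE 0.19, adjusted p = 0.0624). It passed without TOM-1 control replicate 1 (0.62, adjusted p = 0.0253) or 2 (0.58, adjusted p = 0.0425) and had 0.17 (adjusted p = 0.0803) without replicate 3.

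Leaving out TOM-1 control replicate 3, 5 of these 7 genes separated the control lines, 4 higher in TOM-1 and 1, EIF2AK1, lower, against 52.8% of all genes (25.4% higher and 27.5% lower). EIF2AK3 was then higher in TOM-1 by 0.94 (SE 0.10, edgeR adjusted p = 3.15e-08) and EIF2AK4 by 0.67 (SE 0.08, adjusted p = 1.85e-07). EIF2AK2 was higher by 0.35 (SE 0.07, adjusted p = 4.33e-04) and PPP1R15B by 0.19 (SE 0.07, adjusted p = 0.0259). With that library these were 0.61, 0.41, -0.06 and -0.14, none past the threshold. GCN1 did not pass in either case (-0.24, adjusted p = 0.209, then -0.09, adjusted p = 0.269).

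Around these genes, 6 lists of the same pathway were counted, chosen with earlier results of these data known. Their counts in TOM-1 are to be read against 15.9% of all genes called higher and 15.9% lower, or 21.8% and 19.8% without TOM-1 control replicate 3. Leaving out that library kept the direction and the call of every gene named from the lists as past the threshold in TOM-1, and the values it moved most are given. In treated TOM-1 the transcription factors and feedback genes downstream of eIF2 alpha phosphorylation were higher in 6 of 7 tested and lower in 1, with a median log2 fold change of 2.20 against 0.05 over all genes. TRIB3, a pseudokinase that feeds back on ATF4, rose by 3.88, ATF3 by 3.00 and DDIT3 (CHOP) by 2.22, or by 2.68 without that library. ATF4 mRNA itself fell by 0.59, and by 0.26 without TOM-1 control replicate 3. Opposite-strand genes share 31.6% of the exonic bases of DDIT3. All 6 of the genes that rose also passed the comparison of the lines in that direction.

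The catalytic and actin partners with which PPP1R15A and PPP1R15B form a phosphatase were lower in 4 of 5, with a median of -0.95, or -0.51 without TOM-1 control replicate 3. Without that library 4 were lower and 1 higher, the catalytic subunit PPP1CB at 0.21 (edgeR adjusted p = 0.0175). The actins ACTG1 and ACTB fell by 1.60 and 1.37, and the catalytic subunit PPP1CA by 0.95, or by 0.51 without that library, though 26.9% of its exonic bases are shared with opposite-strand genes. Of the 8 subunits of eIF2, the substrate, and eIF2B, 0 were higher and 2 lower (median -0.22), near the 15.9% of all genes called lower: EIF2B5 fell by 0.79 and EIF2S3 by 0.44. Without TOM-1 control replicate 3 it was 2 higher and 3 lower.

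Initiation factors that work with eIF2 moved in both directions, 3 of 8 higher and 2 lower (median -0.09), on few genes against 15.9% each way over all genes. Leaving out TOM-1 control replicate 3 gave 3 and 2 again (median -0.05). EIF1 rose by 1.07, or by 1.51 without that library, EIF5 by 0.55 and DENR by 0.38, while CDC123, the eIF2 assembly factor, fell by 0.75 and EIF1AX by 0.38. Only 3 of the 8 passed without TOM-1 ADI-PEG20 replicate 1. Opposite-strand genes share 16.8% of the exonic bases of CDC123.

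A list of 20 genes held activators and inhibitors of the kinases, and beside them the stress sensors ERN1 and ATF6. Of these, 4 were higher, a share near the background, and 10 lower in treated TOM-1 (median -0.45), against 15.9% of all genes each way. It was 6 and 12 without TOM-1 control replicate 3, against 21.8% and 19.8%. The stress sensors ERN1 and ATF6 rose by 3.78 and 1.29 and the adaptor NCK1 by 0.87. The chaperones HSP90AB1 and HSP90AA1 fell by 1.80 and 1.45, and RPLP2, a protein of the ribosomal stalk that can activate GCN2, by 1.60, or by 0.73 without that library. A pair of restraints on the kinases was chosen after their values were seen: HSPA5, the chaperone that holds PERK inactive, fell by 0.50, and DNAJC3, an inhibitor of PKR and PERK, was at 0.67 (edgeR adjusted p = 0.0672), or 0.37 (adjusted p = 0.0122) without that library. This pair does not stand for the list. TARBP2, also in it, fell by 0.96 (edgeR adjusted p = 0.0191), or by 0.44 without that library. PRKRA was at 0.84 (edgeR adjusted p = 0.0659), or 0.46 (adjusted p = 5.30e-05) without that library.

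Genes that sense double-stranded RNA or respond to interferon, as EIF2AK2 does, were higher in 8 of 17 and lower in 0, against 15.9% of all genes each way, with a median of 0.94. It was 9 and 1, against 21.8% and 19.8%, with a median of 0.79, without TOM-1 control replicate 3. OAS1 rose by 2.39, IFIT3 by 2.24 and IFIH1 by 1.96. The first of these rose from a low mean of 1.61 CPM to 8.61 CPM, and IFIT3 from 1.67 to 8.18 CPM. Both treated means stayed below those of RS4;11 controls, 10.6 CPM for OAS1 and 13.5 CPM for IFIT3. IFIH1 had a mean of 65.5 CPM in treated TOM-1, above 17.8 CPM in RS4;11 controls. EIF2AK2 was not higher in treated TOM-1 beside them. Between the lines 4 of the 17 passed, all with a larger change in TOM-1, against 5.89% of all genes in that direction. Without that library it was 7 higher and 1 lower, against 30.4% of all genes in either direction. In RS4;11, 0 genes of any of the 6 lists passed, with medians from -0.14 to 0.09, and 1 gene of the downstream list passed without TOM-1 control replicate 3.

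**Figure D4:**
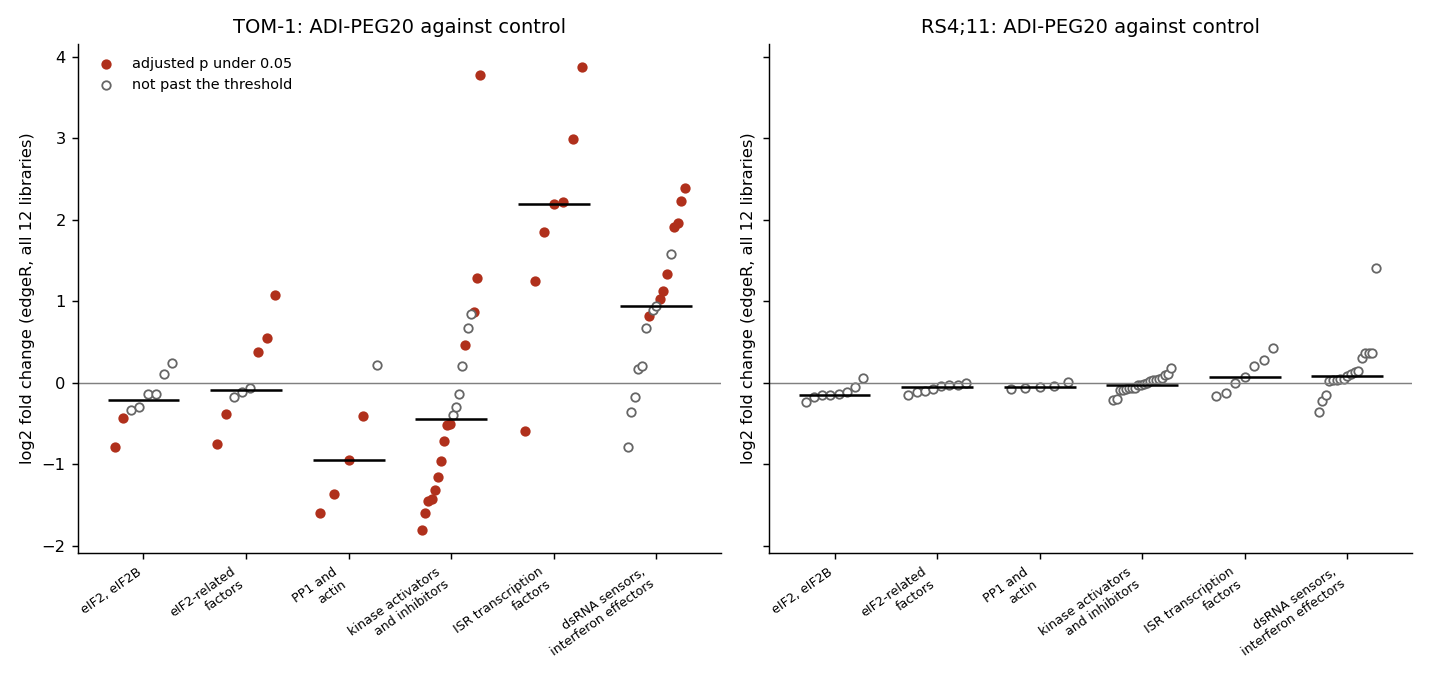
Log2 fold change of each listed gene (y axis) for ADI-PEG20 against control in TOM-1 and in RS4;11, by list. In TOM-1 the downstream transcription factors and feedback genes have a median of 2.20 and the phosphatase partners one of -0.95, and in RS4;11 all medians lie between -0.14 and 0.09.

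The genes whose log2 CPM followed each of the 8 most closely over the 12 libraries are a description only, since libraries share groups. For PPP1R15A they were BTG1 (r = 0.998) and CEBPB (r = 0.997), and without TOM-1 control replicate 3, over 11 libraries, MAP1LC3B (r = 0.999) and BTG1 (r = 0.998). For PPP1R15B they were TRAPPC6B (r = 0.996) and SPAG9 (r = 0.995), for EIF2AK1 IKZF1 (r = 0.989) and SREBF2 (r = 0.985), and for EIF2AK2 E2F3 (r = 0.991) and SON (r = 0.987). For EIF2AK3 they were ZNF106 (r = 0.993) and TMED8 (r = 0.990), and for EIF2AK4 TTYH2 (r = 0.983) and SIPA1L3 (r = 0.979). For GCN1 they were RBM12 (r = 0.988) and PFAS (r = 0.988), and for IMPACT LGR4 (r = 0.993) and PKIA (r = 0.992). Without TOM-1 control replicate 3 only BTG1 for PPP1R15A and PFAS for GCN1 stayed among the 2 closest, so for the other 6 genes the closest pair differed.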

How the data were processed

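Poly(A)-captured RNA from 12 libraries was analysed. What the authors deposited is a single table of whole-number read counts for Ensembl genes, with no normalization. The submitters' processing notes name STAR, SAMtools, featureCounts and hg38. Their roles, versions, the use of strand, the annotation release and the treatment of reads shared by genes are not given in the sources used here. Groups came from the sample titles and columns from the sample descriptions.

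The tests used edgeR 4.0.16 in R 4.3.3: filterByExpr kept 17349 genes (18321 without TOM-1 control replicate 3), 29301 of the 60664 rows were 0 throughout, libraries were scaled by TMM, and a group-means model over all 12 libraries gave quasi-likelihood F tests (glmQLFit, glmQLFTest). P-values were adjusted by Benjamini-Hochberg over all tested genes, with a threshold of 0.05. The SE is the log2 fold change divided by the square root of F. Levels are CPM. Log2 CPM used for likeness had a prior count of 2, over genes at 5 CPM or more. The procedure was tested on simulated data with known changes in 200 genes of treated TOM-1. In the real data, 5527 genes were called there with all 12 libraries. The simulation set no library apart as TOM-1 control replicate 3 stands apart, so its rates need not hold for the real tests. With all 12 libraries it recovered 48 of 100 2-fold and 76 of 100 4-fold changes in TOM-1. In the difference between the lines it recovered 16 and 58. Without TOM-1 control replicate 3 these were 67 and 92, and 62 and 82. Unchanged genes called numbered 7 in TOM-1 and 6 in the difference with all libraries, and 9 and 11 without that library. A gene that did not pass may still have changed.

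Alternatives were edgeR with upper-quartile scaling or DESeq2 size factors, with every gene kept, or with genes kept at a mean of 10 counts; DESeq2 1.42.0 (Wald test); limma 3.58.1 (voom, quality weights); a replicate block; a fit of only the 6 libraries compared; and leaving out 1 library at a time. Counts over the gene lists under these settings were added after seeing the data. The 8 genes and the lists were chosen with earlier results of these data known. From each list, up to 3 genes past the threshold in each direction with the largest log2 fold change were named, and per gene the 2 closest in log2 CPM. HSPA5, DNAJC3, TARBP2, PRKRA and PPP1CB were named beyond this rule, after their values were seen. NUPR1 and ZBP1 were listed but did not pass the filter, and ADAR is in 2 lists. Symbols were found for 60463 identifiers. GENCODE release 29 (GRCh38, 58396 identifiers) gave lengths, overlaps and positions, and promoters came from RefSeq on GRCh38.p14. A promoter for EIF2AK1 was not used here. Figures were drawn with matplotlib 3.10.9.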

Additional observations from a re-analysis of the deposited data

Results flagged for a closer look

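The response of PPP1R15A to ADI-PEG20 differed between the lines by a test of the difference itself: the log2 fold change was 3.07 higher in TOM-1 than in RS4;11 (SE 0.28, edgeR adjusted p = 8.18e-05). All 3 treated TOM-1 libraries were above their controls, while the RS4;11 conditions overlapped. The value ran from 2.89 to 3.40 when each library was left out in turn, and it passed the test each time.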

How the results depend on the processing

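The TOM-1 change of PPP1R15A kept its direction and passed under all 20 alternatives (2.79 to 3.30), and its difference between the lines passed under all 19. Of 591 alternative log2 fold changes, 524 kept direction and call. With the direction kept, 8 lost the call and 29 gained one, and 30 changed sign. Some of the 30 gained a call as well. These were EIF2AK4 in TOM-1 and EIF2AK2 between the control lines, each with voom and without TOM-1 control replicate 3. PPP1R15B between the control lines did so without that library. The number of genes past the threshold in TOM-1 was 4, against 1 with the 6 libraries of the contrast alone, 6 with voom and 2 to 6 with a library left out. In the difference between the lines it was 1, against 2 with DESeq2 size factors, 3 with upper-quartile scaling, 2 with the DESeq2 Wald test, 5 with voom and 1 to 5 with a library left out. Between the control lines, IMPACT left out, it was 0, against 4 with voom and 0 to 5 with a library left out. There it was 1 with DESeq2 size factors, with upper-quartile scaling, with the filter on a mean of 10 counts and with the Wald test. EIF2AK1 gained the call between the control lines in 9 of 20 alternatives. In RS4;11 it was 0 throughout. Except where a library left out is named, the cause was not tested. The filter on a mean of 10 counts removes IMPACT, whose depth of at most 26 counts limits its values.

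With voom, the TOM-1 log2 fold changes of EIF2AK3 and EIF2AK4 were -0.091 and -0.21, their differences between the lines -0.042 and -0.19, and the control-line values of EIF2AK2 and PPP1R15B 0.30 and 0.15. With upper-quartile scaling, EIF2AK4 was at -0.013 in TOM-1 and EIF2AK3 at 0.0017 in RS4;11. Leaving out each library gave, in TOM-1, -0.41 to 0.24 for EIF2AK2, -0.10 to 0.42 for EIF2AK3 and -0.21 to 0.19 for EIF2AK4. In RS4;11 it gave -0.0086 to 0.10 for EIF2AK2, -0.11 to 0.073 for EIF2AK3, -0.077 to 0.014 for EIF2AK4, -0.081 to 0.016 for GCN1 and -0.068 to 0.52 for IMPACT. In the difference it gave -0.46 to 0.19 for EIF2AK2, -0.087 to 0.44 for EIF2AK3 and -0.18 to 0.22 for EIF2AK4, and between control lines -0.37 to 0.35 for EIF2AK2 and -0.41 to 0.19 for PPP1R15B.

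Whether replicate numbers pair the samples cannot be told from 3 libraries a group. Deviations of same-numbered libraries correlated at -0.027, -0.012 and -0.062 in TOM-1 and at 0.057, 0.031 and 0.14 in RS4;11. For differently numbered libraries the values ran from -0.053 to 0.070 in TOM-1 and from -0.095 to 0.055 in RS4;11. With the replicate number as a block, 4, 0 and 1 genes passed in TOM-1, RS4;11 and the difference. Between the control lines, IMPACT left out, it was 1. EIF2AK2 was then at 0.21 in TOM-1 and 0.16 in the difference.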
